A study of Rattus norvegicus with 9 samples.

Results

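Regions that gained accessibility after chronic constriction injury (CCI) numbered 4081 of the 186719 accessible regions measured in rat dorsal root ganglia (DRGs), which is 2.19%. A region was counted as gaining where the lower of the CCI rats exceeded the highest of the 3 naive rats, the log2 ratio of the group means was at least 0.8 and the CCI mean was at least 20 normalised reads. Because these values chose the regions, their CCI and naive values are given as a description without a test. Gaining is used throughout as the name of this rule.

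The tissue was the ipsilateral lumbar DRGs of female Sprague-Dawley rats, taken 14 days after ligatures had been tied loosely around the sciatic nerve (CCI) or from rats with no procedure (naive). The rats were adults, with an age given as 8 to 10 weeks in one place of the sources and as 12 to 16 weeks in another. ATAC-seq, in which the Tn5 transposase inserts adaptors into open chromatin, used the DRGs of 1 rat for each library, and the labels give 2 CCI and 3 naive libraries. Elsewhere the sources give 3 CCI and 2 naive, or 3 of each, and the labels were followed. For H3K4me1, the DRGs of 3 rats were pooled in each of 2 CCI and 2 naive ChIP-seq samples, and its regions come as 1 merged list. Naive rats had no sham surgery, so the effects of the operation and of the nerve injury cannot be told apart. In this bulk tissue, more cells of a type and more accessibility per cell cannot be told apart either. The libraries held 4633807 to 13248437 reads in the accessible regions, with the fewest in naive rat 2 and the most in naive rat 1. A normalised read is a read divided by the size factor of its library, which was 1 for naive rat 2 and at most 3.06, for naive rat 1.

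A DRG holds the cell bodies of sensory neurons, wrapped by satellite glia, together with Schwann cells, macrophages, fibroblasts and vessels. Nerve injury switches DRG neurons to a program of stress, regeneration and altered excitability, and accessible DNA away from genes is where enhancers that drive such programs are found. H3K4me1 is a histone mark of enhancers, and it also flanks active promoters.

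Sequences are shown for gaining regions that were cloned by the study and for some genes whose gaining regions stand in its list of promoter regions. Names of nearest genes come from that list and from its list of H3K4me1 regions, both of which were chosen on these same libraries and are not independent evidence of a direction. They named 679 (16.6%) of the gaining regions after 608 genes, and the other gaining regions are given by position in rn6. Luciferase constructs F and G were the cloned regions that overlapped a gaining region, nearest to Stac2 and Nptx2. Construct F, chr10:86037079-86037733, ran past the end of its gaining region, chr10:86036954-86037667, and construct G had the coordinates of its own, chr12:12086634-12086856. Their primers mark the ends of the cloned DNA, with the part that matches the rat genome in capitals and the added tail in lower case, 5′ to 3′.
F forward: atcagctagcGCCTGGTGAGAAAACAAGCA
F reverse: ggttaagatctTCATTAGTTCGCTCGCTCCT
G forward: atcaacgcgtTGCTCCCAGGATCTAGTGAG
G reverse: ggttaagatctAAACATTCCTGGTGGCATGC

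The promoters of Cuta, Scn11a and Socs3 are shown out of a larger number of promoter-list genes. Candidates were genes at the largest ratios, the highest CCI means, the gene lists and the regions furthest above their surroundings. Among these candidates, Cuta, Scn11a and Socs3 had both a gaining region in the promoter list and a sequence in RefSeq. They run from 250 bases before to 50 bases after a start site on the minus strand of GRCr8, at chr20:5026343-5026642 for Cuta, chr8:128444669-128444968 for Scn11a and chr10:103694719-103695018 for Socs3. GRCr8 is not the build of the accessible regions, so the positions were not set against each other. Capitals mark matches to 7 short motifs searched on both strands.
Cuta promoter: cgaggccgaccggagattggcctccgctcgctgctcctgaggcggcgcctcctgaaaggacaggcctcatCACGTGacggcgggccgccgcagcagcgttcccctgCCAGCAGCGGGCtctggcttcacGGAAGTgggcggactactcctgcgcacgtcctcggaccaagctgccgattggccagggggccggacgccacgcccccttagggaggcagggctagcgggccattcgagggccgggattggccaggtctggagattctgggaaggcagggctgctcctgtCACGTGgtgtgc
Scn11a promoter: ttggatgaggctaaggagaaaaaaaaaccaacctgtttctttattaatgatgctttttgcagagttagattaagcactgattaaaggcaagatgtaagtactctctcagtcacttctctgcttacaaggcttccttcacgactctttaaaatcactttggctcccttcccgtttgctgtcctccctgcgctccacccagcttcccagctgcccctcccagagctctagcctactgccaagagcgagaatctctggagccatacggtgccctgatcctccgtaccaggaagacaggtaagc
Socs3 promoter: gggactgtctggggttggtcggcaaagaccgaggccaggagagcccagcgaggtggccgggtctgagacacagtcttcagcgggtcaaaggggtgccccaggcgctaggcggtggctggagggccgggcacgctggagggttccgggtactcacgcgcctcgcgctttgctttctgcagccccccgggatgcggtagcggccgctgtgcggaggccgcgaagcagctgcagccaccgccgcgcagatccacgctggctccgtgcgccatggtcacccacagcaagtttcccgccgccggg
The motifs were TGANTCA (AP-1), TGACGTCA (CRE), TTGCNNAA (C/EBP), TGTGGT (RUNX), CACGTG (E-box), GGAAGT (ETS) and a longer CTCF motif with some positions open to any base. The Cuta promoter held 2 E-boxes, 1 ETS match and 1 CTCF match. Of 27457 RefSeq promoters of the same length, 6.65% held an E-box, 22.8% an ETS match, 2.53% a CTCF match, 7.33% an AP-1 match, 1.91% a CRE, 10.5% a C/EBP match and 16.9% a RUNX match. The Scn11a and Socs3 promoters held none of the 7 motifs. Bases G and C made up 69.7% of the Cuta promoter, 48.3% of the Scn11a promoter and 70.7% of the Socs3 promoter, and the median over all promoters was 52.3%. A statement on base composition over all gaining promoter-list genes is void, because a promoter was found for 92 of the 118 genes (78.0%), which is under 80%.

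Most gaining regions were weak and short beside the other regions with a CCI mean of at least 20. The median over the 4081 regions was 30.04 normalised reads in CCI rat 1, 25.2 in CCI rat 2, and 13.4, 14 and 13.1 in naive rats 1, 2 and 3. These medians rest on 45, 55, 41, 14 and 20 reads per region. CCI rat 1 was above CCI rat 2 in 74.1% of the regions, and naive rat 2 was the highest naive rat in 40.4%. The median log2 ratio of CCI rat 1 over CCI rat 2 was 0.33 in gaining regions. It was also 0.33 in all regions with a CCI mean of at least 20, so this offset is not particular to gaining regions. How often naive rat 2 was highest over all regions was not analysed here. Of the gaining regions, 2478 (60.7%) had a CCI mean below 30 and 170 had one of at least 100. The median log2 ratio was 1.02, 2147 regions were at least 2-fold higher, 154 at least 3-fold and 14 at least 4-fold. The lower of the CCI rats exceeded the highest naive rat by a median of 0.48 on the log2 scale, and by at least 1 in 224 regions. In 11 regions a naive rat was at 1 read, the lowest value the deposited table gives.

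Values at the edge of the rule show how close its members lie to regions it left out. At the gaining region of lowest ratio, chr3:152474163-152474629, normalised reads were 50.7 and 28.8 in the CCI rats and 20.6, 23 and 24.97 in naive rats. At the region that missed the ratio by least, chr12:17742628-17742873, they were 26.03 and 18.3 against 15.0, 12 and 11.2. At the gaining region of lowest level, chr2:17669799-17670225, they were 18.0 and 22.0 against 11.4, 11 and 11.8. The next region below that level, chr3:8967644-8967793, had 26.7 and 13.3 against 11.1, 9 and 9.20. At each edge the gaining region and the region left out had nearly the same ratio or level.

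With limma across all 186719 regions, 2512 gaining regions had an unadjusted p below 0.01, against 3968 regions (2.13%) called higher among all, and 199 had a Benjamini-Hochberg adjusted p below 0.05, against 200 (0.107%) among all. The rule used the same contrast, so nothing is read from these counts. Among the 44476 regions with a CCI mean of at least 20, the CCI rats did not overlap the naive rats from above in 11400 (25.6%). The same rule turned round chose 2103 losing regions (1.13%), with a naive mean of at least 20. The 3968 regions called higher stood beside 2735 called lower, which became 2353 and 4619 after median-of-ratios rescaling and 1220 and 3742 once every rat had the median of each 1 Mb window subtracted. Median-of-ratios rescaling moved the median log2 ratio of all regions from 0.12 to 0.01. The gaining regions' median log2 ratio was 0.90 after median-of-ratios rescaling and 0.64 after the window medians were removed, with 2816 and 1321 regions still at 0.8 or more.

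Because the rule used all 5 rats, the gain was also read in rats whose values were left out when the rule was applied. The accessible regions were 1 merged set for all libraries, so the held-out rats were not fully independent of the choice. A shift shared by the rats of a group also carries over into a held-out pair. Regions were chosen by the same rule from 1 CCI rat and 2 naive rats, and the other CCI rat was compared with the other naive rat, which can be done in 6 ways that share rats. In each of the 6 ways the chosen regions lay higher in the held-out pair than the other regions that met the level minimum. The difference of the medians was 0.32 to 0.47 on the log2 scale, with a median of 0.41. Read in CCI rat 1 against naive rat 1, 4061 chosen regions had a median log2 ratio of 0.64 and the others 0.29. Read in CCI rat 2 against naive rat 2, 14322 chosen regions had a median of 0.18 and the others -0.23, and 63.5% of the chosen and 32.5% of the others were above 0. The held-out medians of the chosen regions, 0.18 to 0.64, all lay below the 1.02 of the gaining regions. Once the median of the surrounding 1 Mb was subtracted in the held-out pair, the difference was 0.18 to 0.33 and was above 0 in 6 of 6 ways. The median of the chosen regions itself was then -0.03 in CCI rat 2 against naive rat 2 and 0.08 to 0.24 in the other pairs. These 6 values are a description with no p-value.

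**Figure D1:**
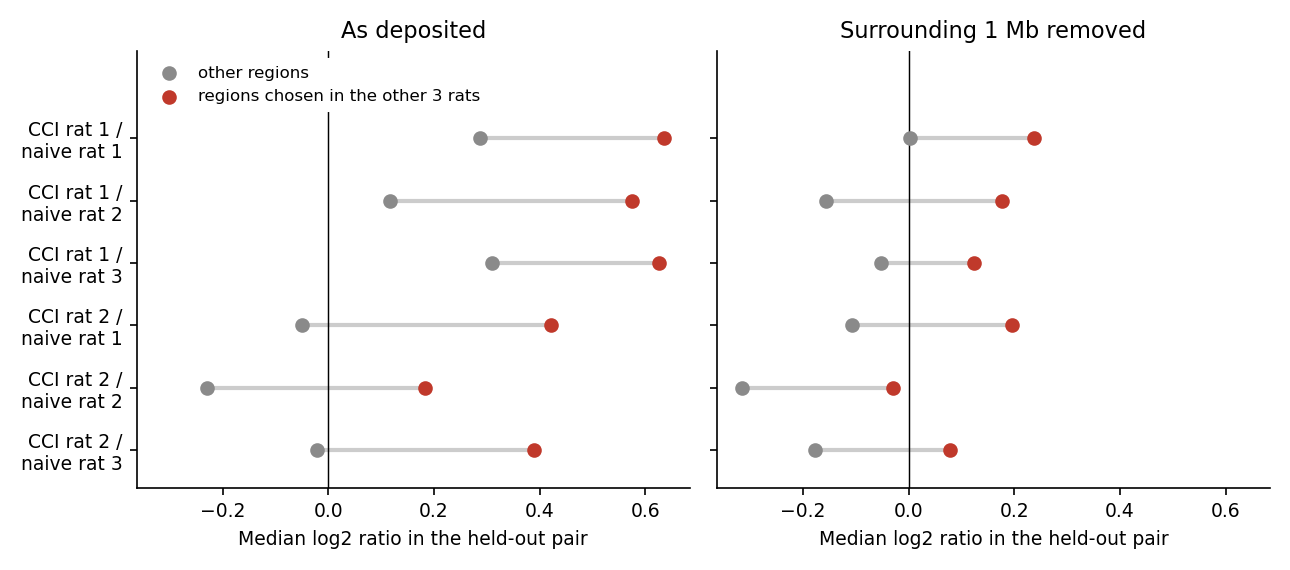
Median log2 ratio (x axis) of regions chosen in 3 rats (red) and of the other regions (grey), read in the CCI and naive rat left out of the choice (6 rows), as deposited and with the median of the surrounding 1 Mb removed. Red lies to the right of grey in 6 of 6 rows of both panels, and the lowest row of red on the left is 0.18, in CCI rat 2 against naive rat 2.

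The regions with the largest ratios were weakly accessible in every rat. The largest log2 ratio, 2.65, was at chr20:19665892-19666227, where CCI rats had 26.03 and 19.2 normalised reads and naive rats 5.23, 1 and 4.60. This region was 336 bp long and lay 3092 bp from the nearest H3K4me1 region. Of the 10 largest ratios, which ran from 2.10 to 2.65, 5 had neither a listed gene nor an overlap with H3K4me1. The other 5 overlapped H3K4me1 and were nearest to Gatsl2, Tmem266, Zfyve21, Rflnb and Cebpb. Cebpb encodes a bZIP transcription factor of the C/EBP family, and its region at chr3:164539570-164539937 had 42.0 and 22.4 in the CCI rats against 6.86, 5 and 10.5, a log2 ratio of 2.11. In reads the CCI rats differed from each other there by more than any pair of naive rats did, but not as a ratio, where naive rats 2 and 3 differed more. At the Gatsl2 region, chr12:25618888-25619198, they were alike at 20.7 and 21.5, against 7.84, 1 and 3.29.

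The 5 most accessible gaining regions were long and lay fully within H3K4me1 regions of 3112 to 7327 bp. Of the 5 highest CCI means, 4 are given here, at 428 to 536 and nearest to Actg1 (cytoplasmic gamma-actin), Cuta, Cdk9 (a kinase that releases paused RNA polymerase) and Ubtf (a factor of ribosomal RNA transcription). At Actg1, chr10:109521666-109523517, normalised reads were 622 and 450 in the CCI rats and 269, 304 and 271 in naive rats. At Ubtf, chr10:90262584-90264566, they were 520.01 and 336 against 187, 304 and 218. The region at Cdk9, chr3:11746624-11748170, had 537 and 322 against 186, 272 and 213, so that CCI rat 2 lay nearer to naive rat 2 than to CCI rat 1. These 4 ratios were 0.86 to 0.94 on the log2 scale, just inside the rule, and 0.20 to 0.44 once the median of their surroundings was subtracted. Over the 170 gaining regions with a CCI mean of at least 100, the median log2 ratio was 0.88 and the median after that subtraction 0.34, against 1.06 and 0.76 in the 2478 regions below 30.

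Of the 33 genes of injury and regeneration on the list used here, 5 were named at a gaining region. Another 3 (Crem, Flrt3 and Klf6) were named at a losing region. Of 23154 RefSeq protein-coding genes, 587 (2.54%) were named at a gaining region and 1.69% at a losing one. The lists hold genes known in DRG and these names come from the study's own lists, so nothing is read from the difference in share. The 5 genes were Socs3 with 3 regions, and Gadd45g, Lif, Stac2 and Vgf with 1 each. Socs3 is the feedback inhibitor of JAK-STAT signalling. Its most accessible gaining region, chr10:106947836-106948483, had 134 and 119.03 normalised reads in the CCI rats and 57.5, 87 and 59.1 in naive rats, a log2 ratio of 0.90. The Socs3 region of the promoter list, chr10:106976551-106976832, had 56.7 and 43.0 against 21.2, 16 and 26.9. Another lay at chr10:107084627-107085069 with 32.0 and 26.1 against 6.86, 15 and 8.54, the largest of these ratios at 1.52. The median log2 ratio around all 3 was 0.61, which leaves 0.28, 0.62 and 0.91.

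Lif encodes a cytokine of the interleukin-6 family that signals through JAK-STAT. Its region, chr14:84490085-84491044, had 91.5 and 79.2 in the CCI rats and 39.9, 38 and 56.5 in naive rats. Vgf encodes the precursor of neuropeptides, and its region at chr12:22677881-22678871 spread more within groups, with 100.8 and 65.5 against 25.8, 54 and 46.0. Gadd45g, a stress-inducible gene, had 31.4 and 27.9 against 8.49, 7 and 11.8 at chr17:13448825-13449105. Its surroundings were nearly flat at 0.13, so its log2 ratio of 1.70 fell only to 1.58 once they were subtracted. Stac2, an adaptor of voltage-gated calcium channels, had the region of construct F with 40.05 and 42.6 against 14.4, 8 and 11.2. The region of construct G near Nptx2, which encodes a neuronal pentraxin of excitatory synapses, had 22.0 and 18.8 against 8.17, 8 and 3.94. The groups did not overlap at any of them, as the rule requires.

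Of 24 genes of ion channels and calcium handling, 3 were named at a gaining region. Scn11a, a sodium channel of nociceptors, had 30.04 and 25.6 normalised reads in the CCI rats and 7.51, 6 and 12.5 in naive rats at chr8:128521066-128521432. Scn8a, a sodium channel of nodes of Ranvier, had 39.4 and 32.0 against 13.4, 19 and 15.1 at chr7:142513869-142514621. Atp2b4, a calcium pump of the plasma membrane, had 48.7 and 38.0 against 21.6, 17 and 19.1 at chr13:50033105-50033676. Surroundings differed little among the 3, at 0.51 to 0.55, and their log2 ratios above these were 1.13 at Scn11a, 0.66 at Scn8a and 0.63 at Atp2b4. Of 7 lysosomal genes, Ctsb (a lysosomal protease) had a gaining region, with 56.1 and 47.1 against 20.3, 17 and 30.9 at chr15:46281215-46281898. Another of the 7, Cst3 (a cysteine protease inhibitor), was nearest to a losing region, with 59.4 and 71.0 in the CCI rats against 154, 140 and 106.

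Of 10 neuronal marker genes, 4 were named at a gaining region and 0 at a losing one. They were Nefh and Prph (neurofilament heavy chain and peripherin), Rbfox3 (a nuclear marker of mature neurons) and Tubb3 (neuronal tubulin). Prph at chr7:140740370-140740931 had 66.8 and 58.1 normalised reads in the CCI rats against 22.5, 35 and 21.7. At Nefh, chr14:85190589-85191276, the values were 64.1 and 39.8 against 21.2, 25 and 23.0. At Rbfox3, chr10:107538313-107538648, CCI rat 2 at 38.9 was close to naive rat 2 at 36, and at Tubb3, chr19:56219180-56219659, it was at 31.1 with naive rat 2 at 29. The ratios of these 4 above their surroundings were 0.28 to 0.70. Of the satellite glia list, 1 of 7 genes had a gaining region, Sox10 (a glial transcription factor), with 58.7 and 44.0 against 21.9, 37 and 15.1 at chr7:120400230-120400510. Of the fibroblast list, Col1a1 (a collagen chain) was 1 of 5, with 91.5 and 80.1 against 48.0, 40 and 44.0 at chr10:82739042-82739587. None of 7 Schwann cell, 10 macrophage and 5 endothelial markers was named at a gaining region, and the endothelial marker Cdh5 was named at a losing region. Only 16.6% of the gaining regions had a name, so gaining regions near other listed markers may have gone unnamed. Accessibility of these markers elsewhere in the genome was not analysed here, and the part that a change of cell composition plays was not tested.

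**Figure D2:**
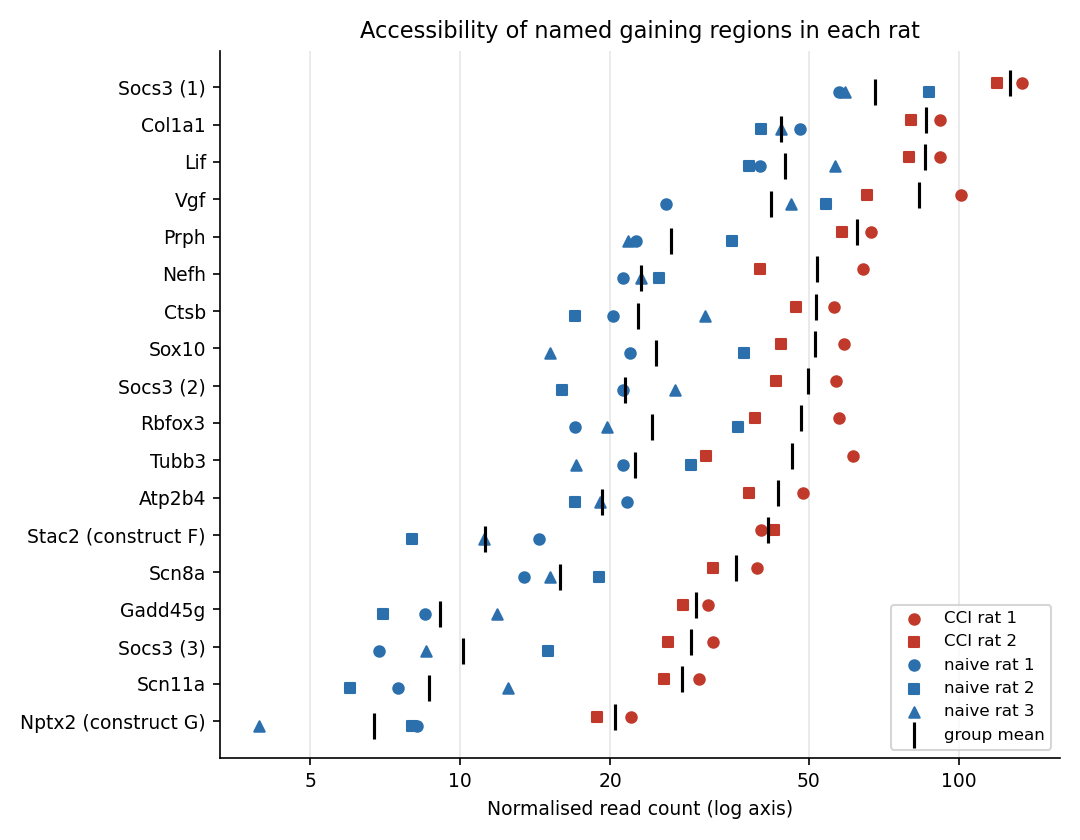
Normalised read count (x axis, log scale) of gaining regions nearest to genes of the lists and of constructs F and G (rows), with 1 point per rat and black bars for group means. In each row both CCI rats (red) lie to the right of all naive rats (blue), as the rule demands, and the gap is narrowest at Rbfox3 and Tubb3, where naive rat 2 reaches 36 and 29.

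H3K4me1 was less common on gaining regions than on other regions of like CCI mean, except at the highest level. The rule also gives gaining regions a low naive mean, with a median of 13.1 against 37.5 for all regions with a CCI mean of at least 20. The regions compared were thus not alike in naive rats, and the H3K4me1 list merges CCI and naive samples. The part this plays in the lower share was not tested. Of the 4081 gaining regions, 1923 (47.1%, 95% Wilson interval 45.6 to 48.7, counting error only) overlapped an H3K4me1 region by at least 1 bp, against 31.3% of all accessible regions, 67.9% of the 44476 regions with a CCI mean of at least 20 and 43.6% of losing regions. The interval treats the regions as independent, though many lie in clusters, and it leaves out differences between rats. The shares went up with accessibility in gaining regions and in all regions alike. Among regions with a CCI mean of 20 to 25, 33.9% of gaining regions and 44.8% of all regions of that level were marked, and with a mean of at least 100 it was 97.1% and 95.4%. Counted the other way, 13.3% of marked and 21.0% of unmarked regions gained at a mean of 20 to 25, while 1.84% and 1.17% gained at 100 or more. Without CCI rat 1, the rule chose regions of which 37.1% were marked, and after subtraction of the 1 Mb window medians it chose regions of which 31.1% were.

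**Figure D3:**
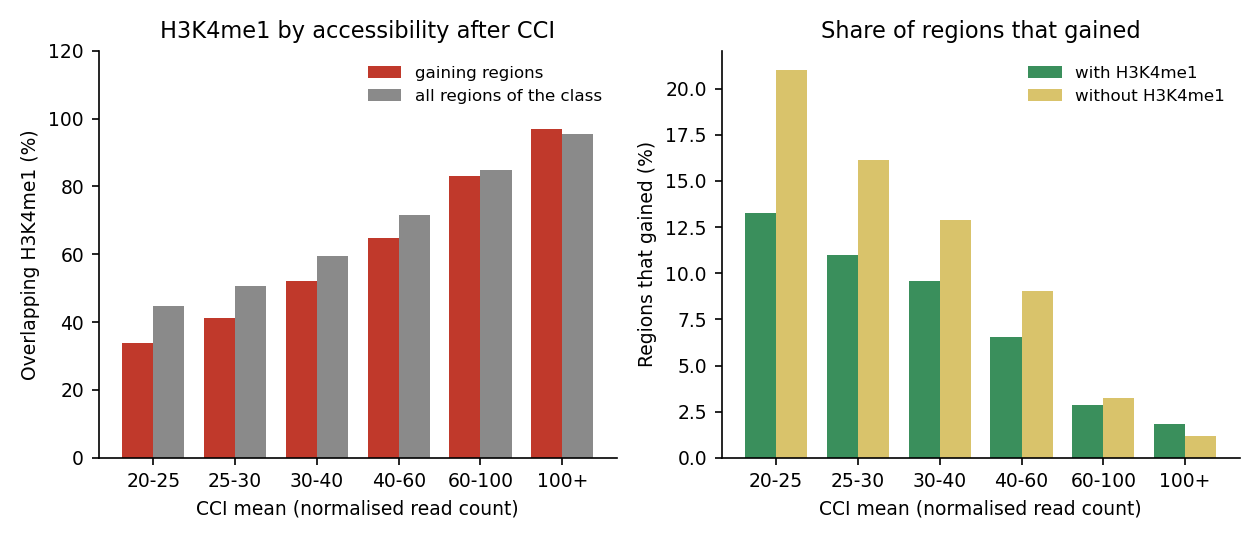
Left, share of gaining regions (red) and of all regions (grey) that overlapped H3K4me1 (y axis, %), and right, share of marked (green) and unmarked (yellow) regions that gained (y axis, %), by CCI mean in normalised reads (x axis). The marked share runs from 33.9% to 97.1% in gaining regions, and unmarked regions gained more often than marked ones below 100 and not above.

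Marked gaining regions lay in somewhat shorter stretches of the mark than all marked regions with a CCI mean of at least 20. The median length of their H3K4me1 regions was 1634 bp, against 1952 bp. In a stretch of at least 1 kb lay 1270 (66.0%) of them, against 73.2%, and 1172 (60.9%) lay fully inside the mark, against 66.9%. In a stretch of at least 5 kb lay 12.1%, against 10.8%. These differences were not tested. Few shared a stretch, since 81 H3K4me1 regions held 2 or more gaining regions and none held more than 3. Gaining regions near Sox10 and Socs3 overlapped stretches of 17134 bp and 8009 bp. The 2158 unmarked gaining regions were not far from the mark, with a median distance of 2291 bp against 3193 bp for all unmarked regions of the same level. Within 1 kb lay 645 (29.9%) of them, against 22.6%, and beyond 10 kb lay 184 (8.53%), against 18.0%. Marked gaining regions had a higher CCI median than unmarked ones, 31.2 against 24.8, and a lower median log2 ratio, 0.98 against 1.06.

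Gaining regions were shorter than regions of their level but longer than accessible regions in general. Their median length was 408 bp (quartiles 307 and 531 bp), and they covered 1847 kb. The median was 595 bp for all regions with a CCI mean of at least 20 and 245 bp for all accessible regions. Of regions at that level, 22.6% gained among those under 250 bp and 1.71% among those of 1500 bp and more. This order stood within levels, since at a CCI mean of 20 to 30 it was 21.9% of regions under 400 bp and 3.74% of those of 600 to 1000 bp, and at 30 to 60 it was 14.8% and 6.05%. Per 100 bp, the median gaining region had 7.28 normalised reads in CCI rats and 3.43 in naive rats, and the median region of the level 7.86 and 7.05. Length, level and H3K4me1 move together here, and their separate parts were not tested.

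Gaining regions were unevenly spread over the 21 chromosomes. Chromosome 10 held 562 (13.8%) of them but 6.79% of the regions with a CCI mean of at least 20, so that 18.6% of these regions gained. On chromosome 12 the share was 18.3% (241 regions), on chromosome 20 it was 14.4% and on chromosome 8 it was 12.5%. Shares were lowest on chromosome 2 with 4.80% and chromosome X with 1.95%, where 17 regions gained and 80 lost. The other regions of a chromosome were displaced as well. Their median log2 ratio was 0.47 on chromosomes 10 and 12, 0.22 on chromosomes 8 and 20, -0.08 on chromosome 2 and -0.16 on chromosome X. Gaining and losing regions divided accordingly, with 562 against 9 on chromosome 10 and 162 against 296 on chromosome 2.

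**Figure D4:**
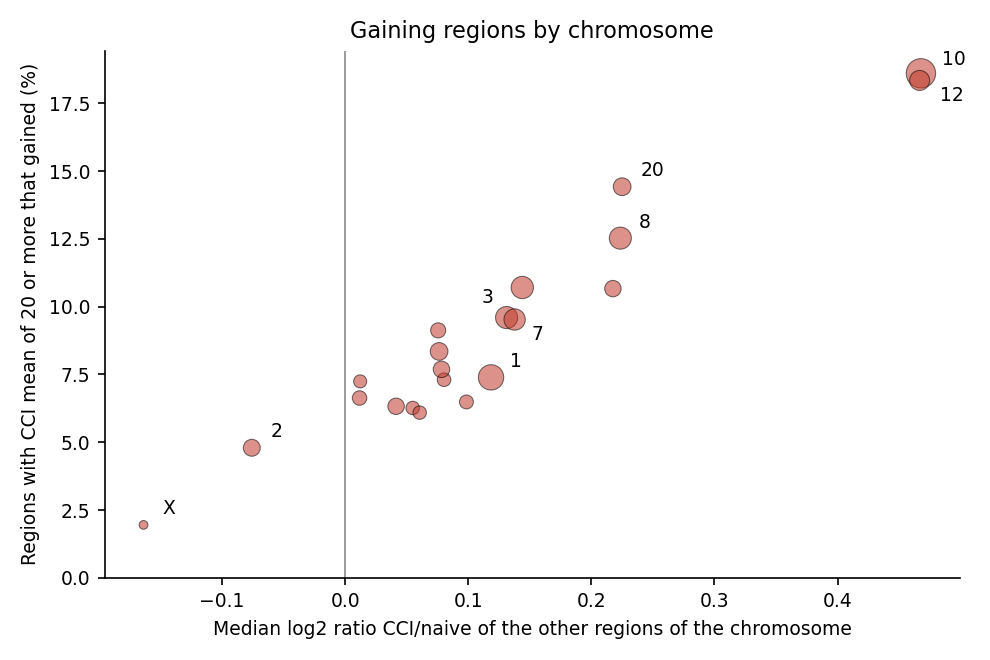
Share of regions with a CCI mean of at least 20 that gained (y axis, %) against the median log2 ratio of the regions that did not (x axis), 1 point per chromosome, with area increasing with the number of gaining regions and selected chromosomes labelled. Chromosomes 10 and 12 lie apart at the upper right, at 18.6% and 18.3%, and chromosome X at the lower left, at 1.95%.

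Within chromosomes the gaining regions were concentrated. Of 2789 windows of 1 Mb, 1539 held none, and the 279 windows with the most held 57.7% of the gaining regions and 28.3% of the regions with a CCI mean of at least 20. The fullest window, chr10:56000001-57000000, held 26 among its 81 regions of that level, next to genes such as Dlg4 (a postsynaptic scaffold), Gabarap (autophagy), Kdm6b (a histone demethylase) and Fxr2. Its other regions had a median log2 ratio of 0.56 and none was losing. The next windows were chr7:12000001-13000000 with 22 gaining regions, then 3 on chromosome 10 and 1 on chromosome 12 with 21 each. One of these, chr10:106000001-107000000, held Birc5 and Socs3.

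Clusters were formed by joining gaining regions with at most 50 kb between them. This placed 1909 (46.8%) of them in 686 clusters, of which 422 were pairs, 136 held 3 and 128 held 4 or more. The other 2172 stood alone. Losing regions clustered less in count and share, with 557 (26.5%) in 241 clusters, a difference that goes with their smaller number and was not tested. Clusters spanned a median of 30.1 kb and at most 193 kb. Clustered gaining regions overlapped H3K4me1 in 53.0% and lone ones in 41.9%.

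No cluster held more than 10 gaining regions. At Plec and Smpd5 (plectin, a linker of the cytoskeleton, and a sphingomyelinase), chr7:117180224-117353534 held 10 gaining regions among 31, and 9 of the 10 overlapped H3K4me1. Their median was 35.0 and 31.8 normalised reads in the CCI rats against 19.4, 13.5 and 18.1 in naive rats, and all 21 other regions of the span were above 0 on the log2 ratio, with a median of 0.47. A cluster of 9 near Arid1a (a subunit of the SWI/SNF remodelling complex), Pigv and Zdhhc18 at chr5:151850465-151977566 had medians of 30.7 and 36.6 against 17.0, 20 and 14.5, with CCI rat 2 the higher of the CCI rats. Another 9 lay near Abca7, Arhgap45, Arid3a and Cfd at chr7:12560665-12753652, and 8 near Arhgdia, Gcgr, Mafg and Ppp1r27 at chr10:109692211-109839722, all 8 of them marked.

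Several genes were nearest to 3 or 4 gaining regions. Mir138-1, a gene of microRNA miR-138, was nearest to 4, with log2 ratios of 0.98 to 1.503. Actg1, Arhgap27, Cerk, Plec, Socs3, Tgfbr2 (a receptor for TGF-beta) and Ubtf were among those nearest to 3 each. Inside the spans of all clusters, the 2715 regions that were not gaining had a median log2 ratio of 0.48 and 86.9% were above 0, against 0.10 and 55.8% for all regions that were not gaining. Losing regions inside these spans numbered 3, while 1.13% of all accessible regions were losing. The spans were drawn around gaining regions, so nothing is read from this count.

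The surroundings of a gaining region were taken as the other accessible regions within 500 kb on each side, with all gaining regions left out. They numbered a median of 85. Their median log2 ratio, the shift of the surroundings, had a median of 0.40 over gaining regions (quartiles 0.24 and 0.53), 0.21 over the other regions with a CCI mean of at least 20, 0.07 over all accessible regions and -0.14 over losing regions. It was above 0 around 93.8% of gaining regions and at or below 0 around 253. The gaining regions exceeded their own surroundings by a median log2 ratio of 0.67, and 1431 (35.1%) still did so by at least 0.8. Marked regions lay in more displaced surroundings than unmarked ones, at 0.46 against 0.36, and exceeded them by less, 0.58 against 0.76. Clustered regions exceeded theirs by 0.57 and lone ones by 0.77.

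**Figure D5:**
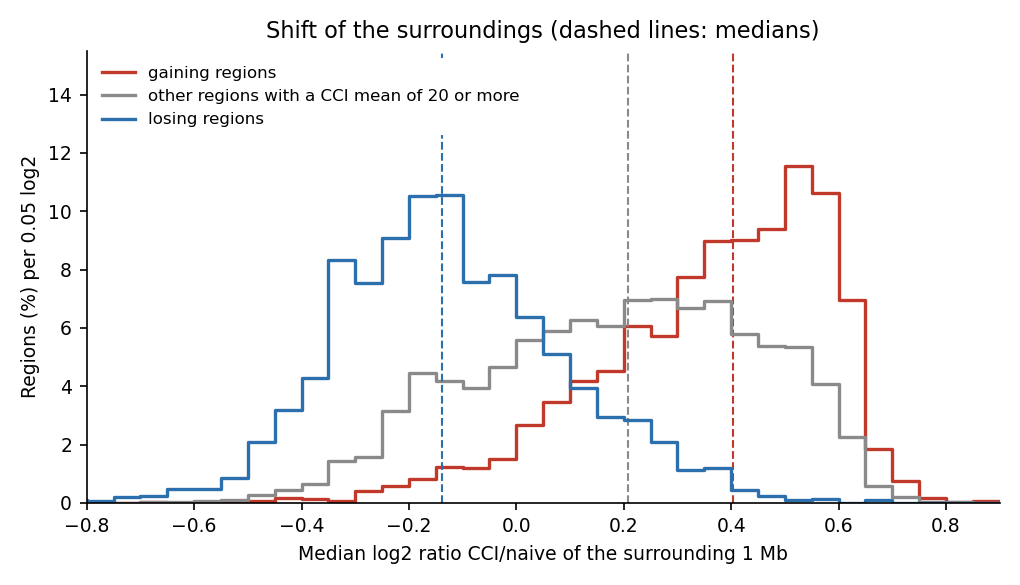
Share of regions (y axis, % per 0.05 log2) by the median log2 ratio of their surrounding 1 Mb (x axis) for gaining regions (red), other regions with a CCI mean of at least 20 (grey) and losing regions (blue), with dashed lines at the medians of 0.40, 0.21 and -0.14. Most of the red curve lies to the right of 0.

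The shift of the surroundings was not the same in the 5 rats. Relative to the mean of all rats, the median log2 level of the surroundings was 0.37 in CCI rat 1, 0.10 in CCI rat 2, and -0.19, -0.04 and -0.20 in naive rats 1, 2 and 3. The groups did not overlap, but CCI rat 2 was nearer to naive rat 2 than to CCI rat 1. Over all accessible regions the same medians were 0.14 and 0.03 in the CCI rats and 0.04, -0.05 and -0.08 in naive rats. CCI rat 1 was thus the highest rat over all regions as well, and these values were not subtracted from those of the surroundings. The gaining regions themselves stood at 0.80 and 0.50 in the CCI rats and at -0.42, -0.37 and -0.42 in naive rats. Without CCI rat 1 the rule chose 3949 regions, and the median shift around them was 0.15. Without CCI rat 2 it chose 11998, and the shift was 0.36. With each 1 Mb window counted once, however many gaining regions it held, the median was 0.24. What sets CCI rat 1 apart was not tested.

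Some gaining regions stood in surroundings with little or no upward shift. The region furthest above its surroundings, apart from that on chromosome 20 named for its ratio, was chr14:100183953-100184267 at the promoter-list gene Plek, which encodes pleckstrin, a protein of platelets and leukocytes. It had 26.7 and 19.2 normalised reads in the CCI rats and 8.17, 4 and 5.26 in naive rats, a log2 ratio of 1.98, while its surroundings stood at -0.17. The next was the unmarked and unnamed chr9:115192502-115192866, with 28.0 and 12.4 against 5.55, 4 and 3.29 in surroundings at 0.13.

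In the held-out rats, regions chosen in clusters lay higher than lone ones in 6 of 6 ways, at 0.19 to 0.78 against 0.16 to 0.56. With the surroundings subtracted, the clustered were higher in 0 of 6 ways, at -0.05 to 0.20 against 0.02 to 0.26. Chosen regions with H3K4me1 exceeded the other marked regions by 0.31 to 0.48, and those without exceeded the other unmarked regions by 0.38 to 0.51. The unmarked difference was the larger in 4 of 6 ways, and in 6 of 6 with the surroundings subtracted.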

How the data were processed

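The members of this set and the gene lists were chosen with earlier results of these data known. Per the methods, the authors aligned ATAC-seq reads to rn6 with Bowtie2, dropped reads of mapping quality under 10 and duplicates, called regions with MACS2 and counted reads in the merged regions. The deposited signal is reads per region divided by a library size factor, with a floor of 1 read, and 100% of the values came out as whole reads within 0.006. The deposited H3K4me1 regions carry no value per sample. Versions of these programs are not given in the sources used here, apart from CASAVA 1.8.2 in the submitters' processing notes.

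The rule was applied to the deposited signal, and any overlap of 1 bp with H3K4me1 counted. limma 3.58.1 (R 4.3.3) was fitted to log2(value + 1) with a mean-variance trend over all 186719 regions, CCI against naive, two-sided, at an unadjusted p below 0.01. This scale understates the change of weak regions. An exact permutation test of 2 against 3 rats cannot give a p below 0.1. Surroundings needed at least 10 regions, and windows of fewer than 20 regions took the chromosome's median. The fits were run on simulated reads with planted changes, as a check of the code. The simulated reads held no shift shared by neighbouring regions, so nothing follows from them about such shifts in these data. Alternatives were other minima, pseudocounts and scalings, fits without a trend or with a replicate block, each rat left out, and edgeR 4.0.16 and DESeq2 1.42.0 on the recovered reads. The H3K4me1 share at higher levels, surroundings limited by level or counted once per window, and limma with window medians removed were added after the data had been seen.

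The regions described in detail were the 10 largest ratios, the 5 highest CCI means, the nearest on each side of the rule's limits, the fullest clusters and windows, those furthest above their surroundings, the cloned regions and those nearest to genes of the lists. Some items among them are not reported here. The windows and those furthest above their surroundings were chosen after their values had been seen. Of the 608 gene names, 604 matched a RefSeq symbol or synonym. Of 2043 listed regions, 2005 had the coordinates of an accessible region and 38 were placed by largest overlap. The H3K4me1 list of the study was read in shortened form, so a gaining region without a name may still have one there. Sequences of the regions and motifs in them were not analysed here, since no rn6 genome was used. Python 3.11.15, numpy 2.4.6, pandas 2.3.3, scipy 1.17.1 and matplotlib 3.10.9 were used.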

Additional observations from a re-analysis of the deposited data

How the results depend on the processing

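The number of gaining regions (4081) was 6989 at a log2 ratio of at least 0.6, 2147 at 1.0, 15625 at a CCI mean of at least 10 and 823 at 40. It was 2347 after median-of-ratios rescaling, of which 2344 were among the 4081, and 1159 with window medians removed, of which 887 (21.7% of the 4081) were. Leaving out 1 rat gave 3949 to 11998, the highest without CCI rat 2. The marked share (47.1%) was 39.0% with at least 50% of the region inside the mark, 31.1% with marks of at least 1 kb, 31.1% with window medians removed, 75.1% at a CCI mean of at least 40, 97.1% at 100, and 37.1% to 53.0% with 1 rat left out, lowest without CCI rat 1 and highest without naive rat 2. The clusters (686) numbered 332 after median-of-ratios rescaling, 69 with window medians removed, and 592 to 2195 with 1 rat left out, with 1057 without naive rat 2 and 2195 without CCI rat 2. The shift of the surroundings (0.40) was 0.15 to 0.47 with 1 rat left out, lowest without CCI rat 1, and 0.24 with each window counted once. The held-out difference (0.41) was 0.35 in CCI rat 1 against naive rat 1, 0.32 in CCI rat 1 against naive rat 3 and 0.27 with surroundings removed. The cause of these moves was not tested, apart from the lower or higher minima, which admit more or fewer regions by construction. Leaving out a rat also changes the rule, since fewer rats must then not overlap. Without 1 CCI rat, the CCI mean is the value of the other. The part that this plays in the counts with 1 rat left out was not tested.

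Of the gaining regions, 2512 had a limma p below 0.01, 3974 one below 0.05 and 199 an adjusted p below 0.05. The count was 243 without a trend, 620 with window medians removed, 1313 when H3K4me1 regions alone were tested, 776 with DESeq2, and 415 to 2348 with 1 rat left out, 415 without CCI rat 1 and 1448 without naive rat 1. With the replicate number as a block it was 1358. The numbers are shared by 2 pairs of rats, whose deviations from their group means correlated at -0.06. With 2 CCI rats, the deviations of CCI rat 1 mirror those of CCI rat 2. The correlation therefore cannot decide whether the numbers pair the rats. The smallest library, naive rat 2, had 14 reads in the median gaining region and 10 or fewer in 1210 of them, which limits the ratio of single weak regions.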

Other observations

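The 118 gaining regions of the promoter list had a median log2 ratio of 0.95 and a median length of 745 bp, and 114 overlapped H3K4me1. The 12 with the largest ratios are named here, chosen after their values had been seen. Ret, the receptor tyrosine kinase for ligands of the GDNF family, had 34.7 and 22.0 normalised reads in the CCI rats and 11.1, 10 and 12.5 in naive rats. Htr3b, a subunit of the ionotropic serotonin receptor, had 30.04 and 23.4 against 11.4, 12 and 6.57, in surroundings with a median log2 ratio of 0.06. Thy1, a surface protein of neurons and T cells, had 40.05 and 27.0 against 13.7, 15 and 12.5. Lhfpl4, a protein of inhibitory synapses, had 37.4 and 29.3 against 11.1, 10 and 21.0.

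Ncf1 and Ncf4 encode subunits of the phagocyte NADPH oxidase. Ncf1 had 26.7 and 29.3 against 14.7, 7 and 10.5, and Ncf4 had 47.4 and 28.4 against 8.17, 24 and 12.5, where naive rat 2 was close to CCI rat 2. Lyl1, a transcription factor of blood cells, had 73.4 and 57.7 against 30.1, 23 and 20.4, a log2 ratio of 1.42. RT1-A1, a rat MHC class I gene, had 107 and 95.7 against 46.4, 30 and 47.3. Gaa, the lysosomal alpha-glucosidase, had 54.1 and 39.4 against 14.1, 23 and 22.3 in surroundings at 0.71, and Sgsm1 had 51.4 and 33.4 against 12.7, 21 and 9.86. On the list of macrophage markers, 0 of 10 genes were named at a gaining region, though most gaining regions had no name. The remaining 2 of the 12, Plek and Scn11a, are described above.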
